A study of Mus musculus with 4 samples.

Results

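The genes described here belong to 6 named families of chromatin remodellers and lysine methylation enzymes, with the subunits that carry their names, followed in ID8 cells, a mouse ovarian cancer line derived from ovarian surface epithelium, with and without a knockdown of Usp9x. They were chosen by symbol, as every gene of the deposited table named Kmt, Kdm, Setd, Chd, Arid or Smarc followed by its family number or letter. Earlier results of these data were known when the families were chosen. Enzymes of these kinds under other names, such as Ezh2 and Atrx, are not among them and are described after them. The rule found 68 of 22063 genes, and 64 of the 68 had enough counts to be tested. RNA sequencing was done on 4 libraries. In 2 of them the cells carried a control short hairpin RNA (shCtrl) and are labelled wild type, and in the other 2 they carried a hairpin against Usp9x (shUSP9X). The hairpins were delivered by lentivirus from the pLKO.1-puro plasmid, so both groups are virus-carrying cells. No other treatment is given for these libraries. The libraries held 17232006 and 15611363 estimated counts in shCtrl, and 19978889 and 17021261 in shUSP9X. Nothing in the labels says that the libraries of a group came from separate cultures, so the p-values below measure the spread between these libraries, which may be technical. In a bulk sample, fewer cells of a type and less RNA per cell cannot be told apart.

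Chromatin is opened, closed and marked by enzymes of these families. Kmt and Setd enzymes place methyl groups on lysines of histones and other proteins through a SET domain, and Kdm enzymes take them off again, mostly through a Jumonji domain. Chd proteins and the Smarca ATPases use ATP to slide, evict or exchange nucleosomes. Some Arid proteins and the other Smarc proteins are DNA-binding or scaffold subunits of complexes such as BAF and PBAF, the mammalian SWI/SNF remodellers. Many of these genes, ARID1A and SMARCA4 among them, are recurrently mutated in ovarian cancers of several histologies. USP9X is a deubiquitinase, which removes ubiquitin from other proteins.

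The targeted gene was measured first. Usp9x (ENSMUSG00000031010, chrX:13071498-13173328, GRCm38) stood at 298.1 and 281.6 CPM (estimated counts scaled to a common library size) in shCtrl and at 19.73 and 20.54 in shUSP9X. The groups did not overlap, and the log2 fold change was -3.85 ± 0.06 (SE) with an adjusted p of 4.7e-26. Throughout, fold changes are shUSP9X over shCtrl from edgeR's quasi-likelihood test, SE is the absolute log2 fold change divided by the square root of the F statistic, and p-values are Benjamini-Hochberg adjusted over the 11448 genes tested. The study lists 2 hairpin targets for the mouse gene. The table's names for the knockdown libraries carry an additional digit that may be a hairpin number, but no source used here explains it, so the hairpin was not assigned. They are shown because they define the knockdown, and neither occurs in the representative transcript of any of the 68 genes.
shUSP9X#2: gataattgcagcccttattaa
shUSP9X#3: tcgtaatgtatgccaatttag
The first matched the coding sequence of Usp9x at chrX:13107160-13107180 in exon 7 of 45, and the second at chrX:13159883-13159903 in exon 38, both on the plus strand.

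Among the 64 tested genes, 34 fell and 15 rose in shUSP9X at an adjusted p below 0.05, and 15 did not pass. That is 53.1% lower and 23.4% higher, where over all genes tested 33.6% were lower and 33.8% were higher. The methods of the study give a cutoff of p below 0.05 and fold change above 1.5, read here as an unadjusted p. With it 21 of the 64 were lower (32.8%) and 3 were higher (4.69%), against 18.7% and 10.8% of all genes. The median log2 fold change was -0.20 over the 64 genes and -0.0005 over all genes. Summed over all 68 members, tested or not, the level was 6036.5 and 6081.3 CPM in shCtrl and 5184.8 and 5231.3 CPM in shUSP9X. In each of the 49 genes that passed, both shUSP9X libraries lay on the same side of both shCtrl libraries. Kdm6b, Kdm5c, Kdm1b and Smarcal1, which did not pass, had groups without overlap too. The share of all genes with such groups was not counted, so the separation is not a trait of these families. By family, 7 of 8 Chd genes, 6 of 8 Kmt genes and 6 of 9 Arid genes fell, whereas 7 of 13 Smarc genes rose. With the offset described below 5 Chd, 4 Kmt and 4 Arid genes were lower, and 2 Chd, 2 Kmt and 2 Arid genes higher. Of the Smarc genes 5 were then lower and 4 higher. The 4 genes that were not tested were Chd5, with 13, 4, 8 and 3 counts in shCtrl 1, shCtrl 2, shUSP9X 1 and shUSP9X 2, the Y-linked Kdm5d and the testis gene Kdm4d, each with at most 1 count in a library, and Arid3c, with 0 in every library.

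**Figure D1:**
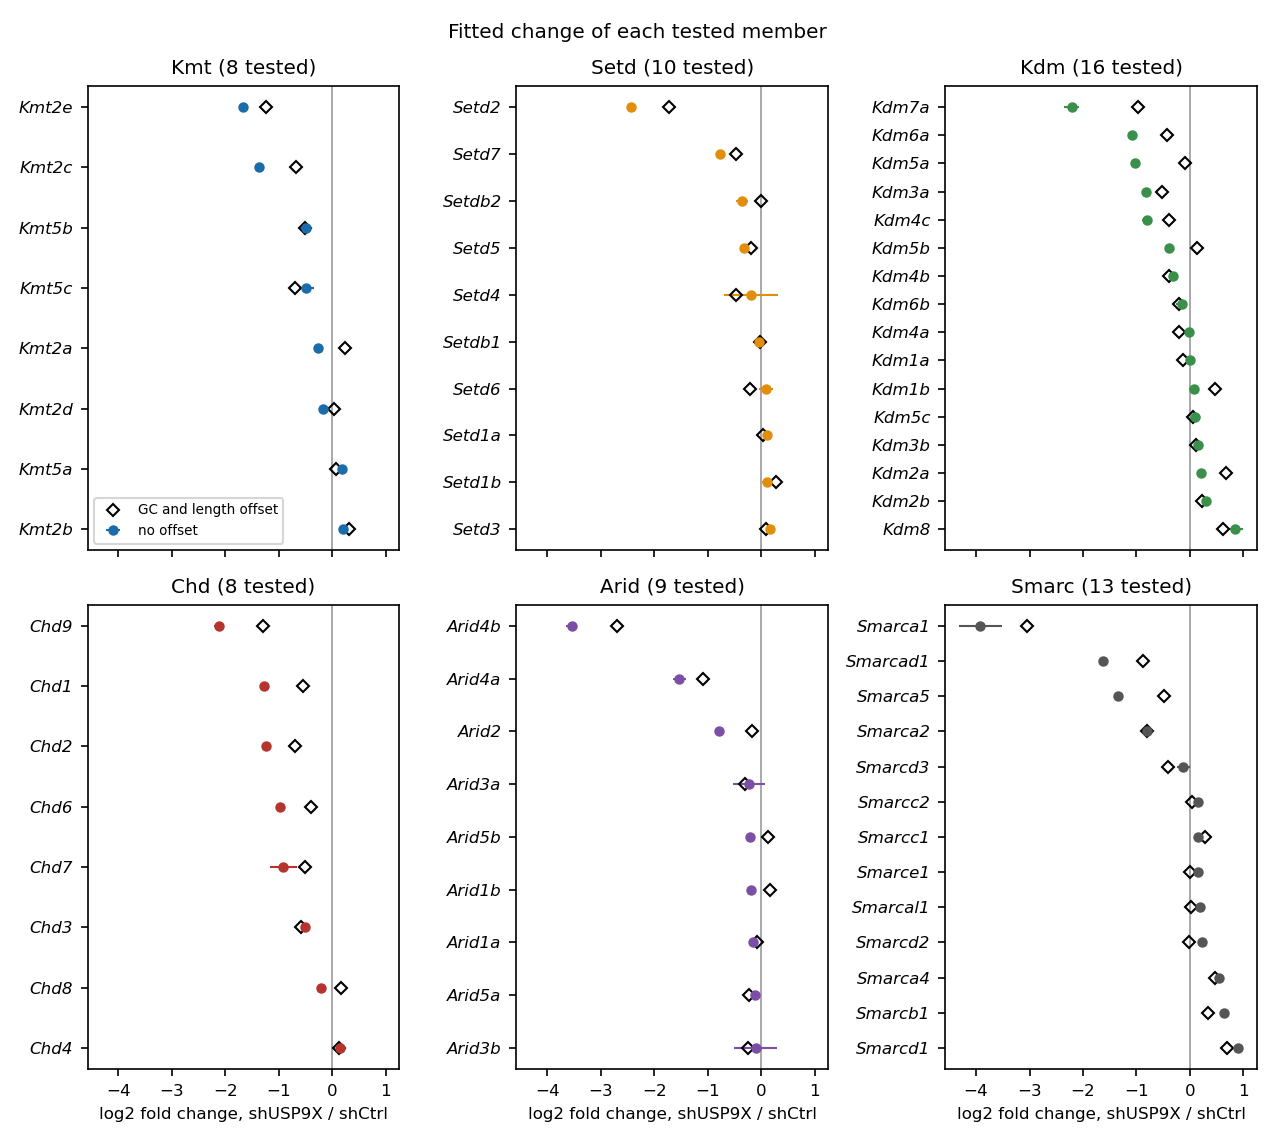
Log2 fold change (x axis, shUSP9X over shCtrl) of each of the 64 tested genes in a panel per family; filled points with bars are the fit and its SE, open diamonds the fit with an offset for GC content and transcript length. The Chd panel lies almost wholly left of 0 (median -0.95, and -0.53 with the offset), while 7 of 13 genes in the Smarc panel rose. With the offset, 4 Smarc genes were higher and 5 lower.

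The change of a gene went with the base composition and the length of its transcript, among these genes and in the whole table. Over the 64 genes, Spearman's rho of the log2 fold change was 0.659 with the GC content of the transcript, 0.652 with the GC content of the last codon base (GC3) and -0.420 with its length, and over all genes tested it was 0.441, 0.394 and -0.316. These are descriptions across genes of the same 4 libraries, and genes are not independent replicates. All 5 members with a GC content below 42% fell, with a median of -2.21, where 978 of all 1190 genes in that class fell, with a median of -0.85. From 42% to 46%, 11 of 12 members fell, with a median of -1.06, where 1107 of all 1940 genes fell, with a median of -0.31. At 54% to 58%, 2 of 13 members were lower and 5 higher, with a median of 0.08, and of all 2204 genes 293 were lower and 1103 higher, with a median of 0.24. Above 58% the members did not follow on, with 3 of 7 lower, 1 higher and a median of -0.16, where 205 of all 1268 genes were lower and 572 higher, with a median of 0.18. The 10 members with transcripts of 9000 bases or more all fell, with a median of -1.01, where 266 of all 369 genes of that length fell and 46 rose, with a median of -0.57. The members are long, with a median transcript of 5919.5 bases against 3063.5 over all genes, while their median GC content was close to that of all genes (50.9% and 50.3%).

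**Figure D2:**
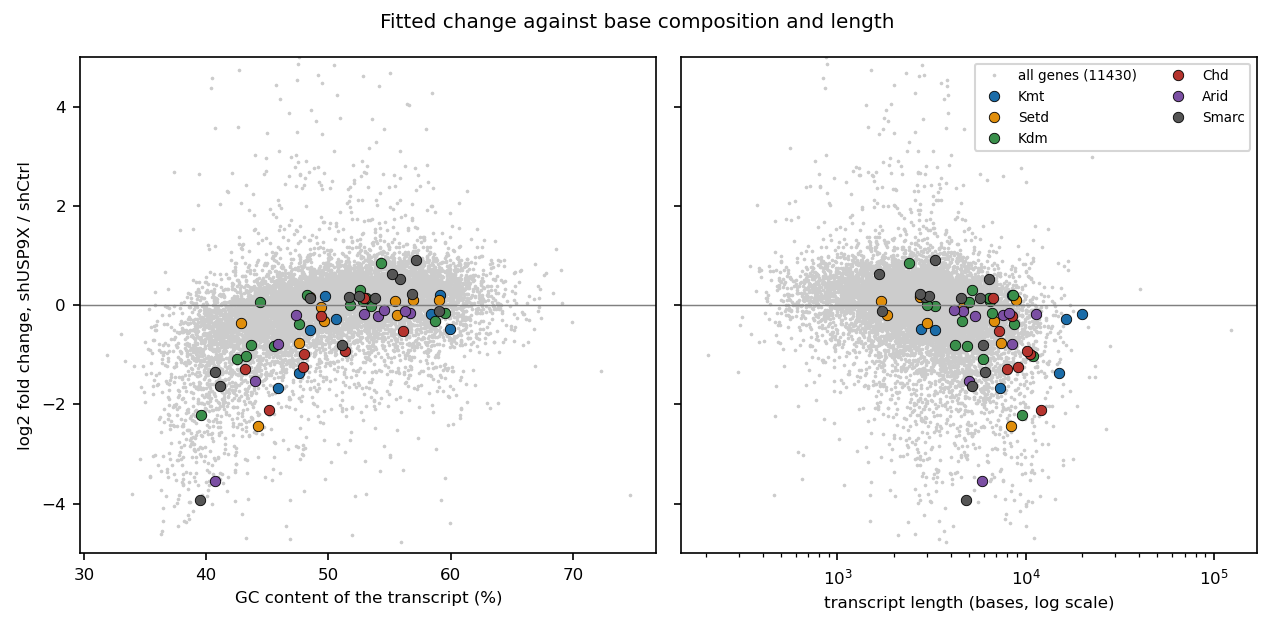
Log2 fold change (y axis) against transcript GC content in percent (left) and transcript length in bases on a log axis (right); grey dots are 11430 genes, of which 53 lie beyond 5 log2 units and outside the plot, and coloured points are the 64 members by family. The members bend downwards with the grey cloud at low GC content and at long length.

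The fit was therefore repeated with an offset for each library's trend on GC content and length, estimated over all genes. Then 28 members were lower (43.8%) and 15 higher (23.4%), with 29.2% and 32.7% over all genes, and the median was -0.18 against 0.01. The trend was not fully removed among the members, where rho was still 0.406 with GC content and 0.45 with GC3 (0.015 and 0.075 over all genes) and -0.058 with length. Of the 34 genes that fell, 24 were also lower with the offset, 6 no longer passed and 4 were higher (Kmt2a, Chd8, Arid5b and Arid1b). Of the 15 that rose, 9 were also higher with the offset and 6 no longer passed. At the cutoff of the study's methods, 12 members were lower with the offset in place of 21. The trend lies between the same libraries as the knockdown, so a trend of library preparation and a trend of the cells cannot be told apart. Other tools also ended some of the smaller calls. DESeq2 did not call Kmt5c, Setd3, Setdb2, Kdm4b, Kdm3b, Arid1a and Arid1b (7 of the 49). limma on filtered FPKM did not call Kmt2a, Kmt2b, Kmt2d, Kdm3b, Chd4, Chd8, Arid1a, Arid1b, Smarcc1, Smarcc2 and Smarce1 (11), and on unfiltered FPKM it did not call Kmt5b, Setdb2, Kdm4b, Kdm5b and Chd7 either. Chd7 and Smarca1 did not reach the FPKM filter, so the filtered fits did not test them. In the fits on log2(FPKM + 1) some falls were smaller by over 1.5-fold, those of Kdm7a (-1.16), Chd9 (-1.52), Chd2 (-0.65), Arid4b (-2.56) and Smarcad1 (-0.88), and, unfiltered, of Smarca1 (-0.99) and Chd7 (-0.23). Values with the offset stand below beside many of the genes, and Usp9x itself was at -2.58 with it.

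The Kmt family, the named lysine methyltransferases, had 6 genes that fell and 2 that rose, with no gene left uncalled, and a median of -0.38. With the offset 4 were lower and 2 higher, with a median of -0.25. The largest falls were in 2 MLL-type genes. Kmt2e (ENSMUSG00000029004, chr5:23434441-23504235), which encodes MLL5, a protein whose SET domain is thought to be inactive, stood at 104.7 and 112.8 CPM in shCtrl and 34.76 and 33.71 in shUSP9X, a log2 fold change of -1.66 ± 0.06 (adjusted p = 3.6e-18). Kmt2c (ENSMUSG00000038056, chr5:25271798-25498783), the MLL3 enzyme that monomethylates H3K4 at enhancers, went from 94.75 and 96.64 to 36.88 and 37.27 CPM (-1.37 ± 0.06, adjusted p = 1.4e-16) and stood at -0.68 with the offset. In both genes the libraries of a group lay much closer to each other than to the other group. About 13.3% of the Kmt2e transcript overlaps the neighbouring gene Srpk2, and the kit does not mark strand, so reads there cannot be assigned with certainty. The sister gene of Kmt2c, Kmt2d, fell much less, from 129.1 and 129.1 to 111.7 and 117.0 CPM (-0.18 ± 0.05, adjusted p = 0.0024). Its adjusted p was 0.11 without shUSP9X replicate 1 and 0.72 with the offset. Kmt2a, the founding MLL gene, was at 116.1 and 117.9 against 94.71 and 99.59 CPM, a log2 fold change of -0.27 that turned to 0.24 with the offset.

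The H4K20 enzymes of the family split. Kmt5b and Kmt5c, which add further methyl groups, fell with log2 fold changes of -0.50 and -0.49 and were lower with the offset too (-0.52 and -0.70). Kmt5b did not pass in limma on unfiltered FPKM (adjusted p = 0.067), nor Kmt5c in DESeq2 (adjusted p = 0.062). Kmt5a, which places the first methyl group, rose from 246.5 and 246.4 to 277.1 and 284.2 CPM (0.19 ± 0.04, adjusted p = 0.00014), and its adjusted p was 0.095 with the offset. Kmt2b, the MLL gene that acts mainly at promoters, rose from 67.82 and 75.32 to 80.34 and 83.98 CPM (0.20 ± 0.06, adjusted p = 0.0051) and was 0.31 with the offset. Without shCtrl replicate 1 its adjusted p was 0.064, and without shUSP9X replicate 2 it was 0.053.

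In the Setd family 4 of 10 genes fell, 1 rose and 5 did not pass, with a median of -0.12 (3 lower and 1 higher with the offset). The median was -0.032 without shCtrl replicate 2, -0.057 without shUSP9X replicate 1 and -0.30 to -0.18 in limma on FPKM. Setd2 (ENSMUSG00000044791, chr9:110532597-110618633), the enzyme that trimethylates H3K36 along transcribed genes, showed the steepest fall of any methyltransferase here. It stood at 131.2 and 127.9 CPM in shCtrl and at 23.98 and 23.92 in shUSP9X, a 5.41-fold fall (-2.44 ± 0.06, adjusted p = 9.7e-22) that was -1.73 with the offset. The 2 shUSP9X libraries were nearly equal and lay far below both control libraries. Setd7, which monomethylates H3K4 and several non-histone proteins, went from 124.4 and 122.5 to 72.24 and 73.00 CPM (-0.77 ± 0.05, adjusted p = 6.6e-13), and was -0.47 with the offset. Setd5 was lower in both fits (-0.32 and -0.20). Setdb2, a relative of the H3K9 enzyme Setdb1, was called lower at -0.35, but its value was 0.00 with the offset and its adjusted p was 0.08 without shCtrl replicate 1 and 0.12 without shUSP9X replicate 1.

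Setdb1, which trimethylates H3K9, Setd4 and Setd6 did not pass, with log2 fold changes of -0.04, -0.20 and 0.08. With the offset Setd6 was at -0.21 and did not pass either (adjusted p = 0.16). The highest Setd genes moved little. Setd3, the actin histidine methyltransferase, was at 100.7 and 100.9 CPM in shCtrl and 115.3 and 109.6 in shUSP9X (0.16 ± 0.05, adjusted p = 0.0072). That adjusted p was 0.16 without shUSP9X replicate 1 and 0.085 with the offset. Setd1b, the catalytic subunit of a COMPASS complex, was at 29.18 and 33.39 against 33.09 and 34.31 CPM, groups that overlap, and passed only with the offset (0.28, adjusted p = 0.0064). Its partner paralogue Setd1a shares 54.3% of its transcript with the annotated same-strand gene Gm49388. The Setd1a counts gave 88.75, 102.8, 103.2 and 101.9 CPM, whereas its deposited FPKM fell from 23.7 and 18.6 to 17.13 and 16.98, so its direction depends on the unit. Its log2 fold change of 0.10 became 0.21 without shCtrl replicate 2, and it passed under upper-quartile scaling (adjusted p = 0.047).

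The Kdm family held 16 tested demethylase genes, of which 7 fell, 4 rose and 5 did not pass, with a median of -0.09. That median was near 0 and not stable, at -0.049 without shCtrl replicate 2, 0.0021 in DESeq2 and 0.0036 without a filter. With the offset 7 and 4 were called too, though not the same genes throughout. Kdm7a (ENSMUSG00000042599, chr6:39136623-39206789), which acts on H3K9 and H3K27 dimethylation, fell from 21.57 and 22.77 to 4.503 and 5.104 CPM (-2.21 ± 0.14, adjusted p = 1.7e-13). Its transcript has a GC content of 39.62% and 9566 bases, and its value was -0.97 with the offset. Kdm6a, the X-linked H3K27 demethylase also called UTX, fell from 76.23 and 78.99 to 37.39 and 35.49 CPM (-1.09 ± 0.07, adjusted p = 7.4e-14) and was -0.43 with the offset. In both genes every shUSP9X library lay below every control library. Kdm3a and Kdm4c, both H3K9 demethylases, fell by 0.83 and 0.80 on the log2 scale (-0.52 and -0.40 with the offset). Kdm4b fell by less (-0.31), and Kdm4a (-0.02) and the H3K27 demethylase Kdm6b (-0.16) did not pass, though Kdm4a did with the offset (-0.20, adjusted p = 0.005) and Kdm6b lay at the threshold with it (-0.21, adjusted p = 0.05).

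The H3K4 demethylases of the Kdm5 group differed among themselves without the offset, and none of them was called with it. Kdm5a, a retinoblastoma-binding protein, went from 98.26 and 97.33 to 46.59 and 49.26 CPM (-1.03 ± 0.06, adjusted p = 2.4e-14), but its value was -0.09 with the offset (adjusted p = 0.21). Kdm5b changed sign, from -0.39 to 0.14. The X-linked Kdm5c was at 206.8 and 209.0 against 213.0 and 228.7 CPM (0.09 ± 0.04, adjusted p = 0.08), and at 0.06 with the offset (adjusted p = 0.21). It passed under upper-quartile scaling (adjusted p = 0.018), with no filter on low counts (0.048) and in the filtered fits on FPKM (0.04 and 0.041). The LSD-type enzymes, which do not have a Jumonji domain, were not called, with Kdm1a at 0.01 and Kdm1b at 0.07. With the offset Kdm1a was lower (-0.14, adjusted p = 0.04) and Kdm1b higher (0.48, adjusted p = 0.00012). About 10.1% of the Kdm1b transcript overlaps the gene Dek on the other strand, which these libraries cannot separate.

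Of the 4 Kdm genes that rose, Kdm8 (ENSMUSG00000030752, chr7:125444676-125462269), a Jumonji-domain hydroxylase, changed most. It was at 7.381 and 7.273 CPM in shCtrl and 13.10 and 13.24 in shUSP9X, a 1.80-fold rise (0.84 ± 0.14, adjusted p = 1e-05). The H3K36 demethylases Kdm2b and Kdm2a, CxxC proteins that bind unmethylated CpG islands, followed. Kdm2b was at 33.39 and 31.56 against 40.83 and 38.99 CPM (0.30 ± 0.08, adjusted p = 0.0021). Kdm2a was at 159.4 and 159.3 against 183.9 and 185.1 CPM (0.21 ± 0.04, adjusted p = 0.00012) and stood at 0.67 with the offset. Of the Kdm2b transcript, 12.1% overlaps the gene Rnf34. Kdm3b, the fourth, rose by 0.14 ± 0.06 with an adjusted p of 0.029, which was 0.081 by library size only, 0.11 without shCtrl replicate 1, 0.086 without shUSP9X replicate 1 and 0.14 without shUSP9X replicate 2, and 0.084 with the offset.

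Of the 8 tested Chd remodellers 7 fell and 1, Chd4, rose, with a median of -0.95. The median was -0.53 with the offset (5 lower and 2 higher) and -0.71 to -0.32 in limma on FPKM. Chd9 (ENSMUSG00000056608, chr8:90828352-91054516) fell most, from 55.59 and 54.39 to 11.99 and 13.53 CPM (-2.11 ± 0.09, adjusted p = 7.1e-17), and was -1.29 with the offset. Chd1, which binds H3K4 trimethylation and opens chromatin at active genes, fell from 187.3 and 176.0 to 75.63 and 74.07 CPM (-1.28 ± 0.05, adjusted p = 7.6e-18), and was -0.54 with the offset. Its relative Chd2 was 2.36-fold lower (-1.24, and -0.70 with the offset). In these genes the 2 libraries of a group lay close together and the groups were far apart. Chd6 and Chd7 fell by 0.99 and 0.91 on the log2 scale (-0.40 and -0.52 with the offset). Chd7, mutated in CHARGE syndrome, had few counts, 94 and 73 against 43 and 54, and its adjusted p of 0.0025 was 0.07 without shUSP9X replicate 1 and 0.087 with the offset.

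Among the remaining Chd genes, Chd8, which restrains beta-catenin and p53 targets, was 133.8 and 131.1 against 113.2 and 115.3 CPM (-0.21 ± 0.05, adjusted p = 0.00032), and 0.17 with the offset. The NuRD ATPases Chd3 and Chd4 went apart. Chd3 fell from 218.0 and 220.6 to 153.9 and 151.9 CPM (-0.52 ± 0.04, adjusted p = 3.7e-11) with a GC-rich transcript (56.09%), and was -0.58 with the offset. Chd4 was the most abundant member of the family per length, at 107.4 and 103.8 FPKM in shCtrl and 112.6 and 111.7 in shUSP9X. Its counts rose from 667.9 and 647.4 to 725.9 and 724.2 CPM (0.14 ± 0.03, adjusted p = 0.00054), a call that was lost in limma on FPKM (0.09, adjusted p = 0.097 to 0.099).

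The Arid genes, which encode AT-rich interaction domain proteins, had 6 of 9 tested members lower and none higher, with a median of -0.21 (0 were also higher in edgeR at an unadjusted p below 0.05, in DESeq2 and in limma on FPKM, and 2 were with the offset). Arid4b (ENSMUSG00000039219, chr13:14063232-14199603), a subunit of the SIN3A histone deacetylase complex, showed the largest fall among members with over 100 counts in each control library. It went from 61.82 and 62.86 to 5.616 and 5.045 CPM, an 11.6-fold fall (-3.54 ± 0.10, adjusted p = 1.6e-20), and was -2.70 with the offset. Its paralogue Arid4a, which sits in the same complex, fell from 27.97 and 31.68 to 9.562 and 11.16 CPM (-1.53 ± 0.12, adjusted p = 8e-12). For both genes no shUSP9X library came near a control library. Arid2, the defining subunit of PBAF, was 146.5 and 146.5 against 85.45 and 85.11 CPM (-0.78 ± 0.05, adjusted p = 1.4e-13) and -0.17 with the offset.

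The BAF subunits Arid1a and Arid1b moved little. Arid1a was at 138.2 and 149.1 against 124.9 and 134.4 CPM (-0.15 ± 0.05, adjusted p = 0.013), with an adjusted p of 0.13 without shCtrl replicate 2, 0.29 without shUSP9X replicate 1 and 0.14 with the offset. Arid1b was at 64.70 and 59.32 against 56.51 and 52.76 CPM (-0.18 ± 0.07, adjusted p = 0.018), with an adjusted p of 0.20 without shCtrl replicate 1 and 0.22 without shUSP9X replicate 2 and 0.051 under upper-quartile scaling, and was 0.17 with the offset. Arid5b likewise turned from -0.21 to 0.12. The highest values of the family belonged to genes that did not pass. Arid3b was at 1.903 and 1.265 against 2.024 and 0.890 CPM, and Arid5a at 34.54 and 36.36 against 30.41 and 35.43 CPM, with overlapping groups in both. Arid3a, at -0.23 ± 0.29, did not pass either. Arid5a was lower with the offset (-0.22, adjusted p = 0.028).

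In the reported fit and with the offset, the Smarc family was the only family of the 6 with a positive median, 0.15 and 0.01. The Kdm median was above 0 too in DESeq2 (0.0021) and without a filter (0.0036). Of the Smarc genes 4 were lower, 7 higher and 2 did not pass. With the offset the balance turned round, to 5 lower and 4 higher. The 4 genes that fell all encode ATPases. Smarca1 (ENSMUSG00000031099, chrX:47809368-47892974), the X-linked ISWI ATPase SNF2L, was scarce, with 85 and 69 counts in shCtrl against 6 and 5 in shUSP9X, a 15.1-fold fall (-3.92 ± 0.40, adjusted p = 2e-09) that was smaller with the offset (-3.04, adjusted p = 7.3e-07). Smarcad1, a remodeller of replication and DNA repair, fell from 68.16 and 63.56 to 20.89 and 21.84 CPM (-1.63 ± 0.08, adjusted p = 5.5e-16) and was -0.89 with the offset. Its FPKM fell less, from 25.8 and 22.7 to 13.38 and 12.04. Smarca5, the ISWI ATPase SNF2H, fell from 228.9 and 225.4 to 91.27 and 86.48 CPM (-1.35 ± 0.05, adjusted p = 5.6e-19) and was -0.49 with the offset. Smarca2, the BAF ATPase BRM, fell from 112.6 and 122.9 to 66.98 and 67.84 CPM (-0.80 ± 0.06, adjusted p = 1.3e-12), with nearly the same value with the offset (-0.80).

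The Smarc genes that rose encode the other BAF ATPase and core subunits. Smarca4 (ENSMUSG00000032187, chr9:21616169-21704230), the ATPase BRG1, rose from 258.5 and 277.4 to 380.5 and 395.5 CPM (0.53 ± 0.04, adjusted p = 6.9e-12). Smarcb1, the core subunit SNF5, rose from 56.40 and 51.86 to 86.97 and 80.42 CPM (0.63 ± 0.06, adjusted p = 1.8e-09) and was 0.33 with the offset. Smarcd1, the BAF60A subunit, rose from 26.24 and 32.25 to 53.83 and 55.26 CPM (0.90 ± 0.08, adjusted p = 4.6e-10), with 8.68% of its transcript shared with an overlapping gene. In all 3 genes both shUSP9X libraries lay above both control libraries, and all 3 were higher with the offset. The scaffolds Smarcc1 and Smarcc2, Smarce1 and Smarcd2 rose by less, with log2 fold changes of 0.15, 0.15, 0.16 and 0.22. Of these 4 only Smarcc1 was also higher with the offset (0.28). Smarcc1 and Smarcc2 had adjusted p-values of 0.059 and 0.087 without shUSP9X replicate 1, and Smarce1 had 0.061 without shUSP9X replicate 2. Smarcal1 was not called (adjusted p = 0.086), but was under upper-quartile scaling (adjusted p = 0.044). Its log2 fold change was 0.30 without shCtrl replicate 1.

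**Figure D3:**
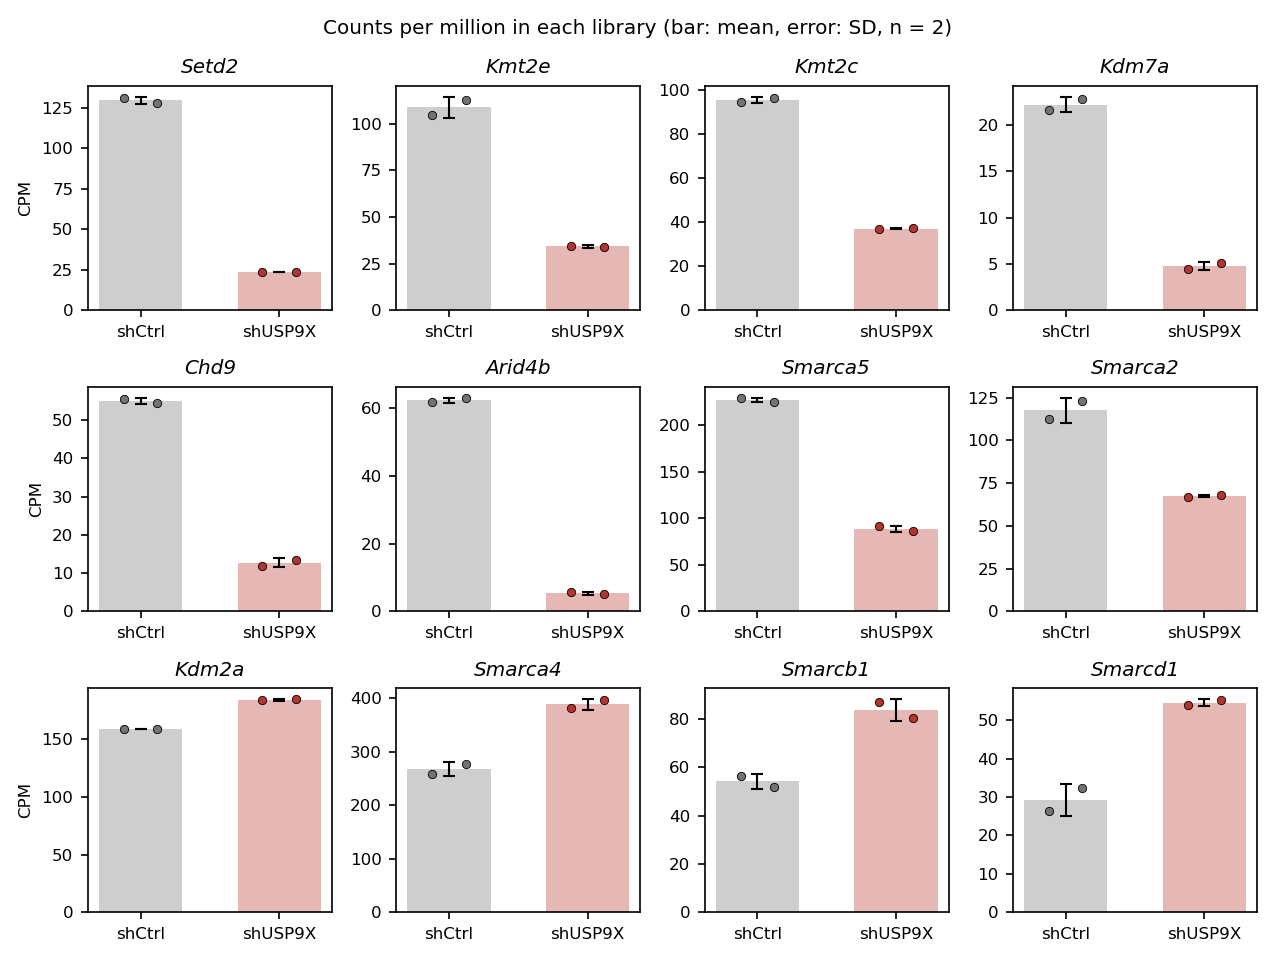
CPM (y axis, from 0) in the shCtrl and shUSP9X libraries for 12 members; points are libraries, bars means and error bars SD (n = 2). All 12 were called both with and without the offset, so separated groups go with the choice of genes. In every panel the libraries of a group lie closer to each other than to the other group. Setd2 is at 131.2 and 127.9 against 23.98 and 23.92, and Smarca4 at 258.5 and 277.4 against 380.5 and 395.5.

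Paralogues, which encode proteins of like structure and often sit in the same complex in each other's place, were then set side by side. Of 37 pairs 33 had both genes tested, and in 9 of them the log2 fold changes differed by 1 or more. In the following, the SE of a difference joins the SEs of both genes as if they were independent. The widest difference among well-measured genes was within Arid4, where Arid4b lay 2.01 ± 0.16 below Arid4a. Per length, Arid4a was at 0.505 and 0.644 times the FPKM of Arid4b in shCtrl and at 2.0 and 2.24 times in shUSP9X, so the order of the pair turned round. With the offset Arid4b lay 1.61 below Arid4a. Chd9 lay 1.90 ± 0.10 below Chd8, 1.20 ± 0.27 below Chd7 and 1.13 ± 0.12 below Chd6. With the offset these were 1.46, 0.77 and 0.89, so the differences from Chd7 and Chd6 were then below 1. The BAF ATPases moved in opposite directions, with Smarca2 1.34 ± 0.07 below Smarca4 (1.26 with the offset). The FPKM ratio of Smarca4 to Smarca2 was 1.12 and 1.44 in shCtrl and 3.11 and 2.78 in shUSP9X, with no overlap between the groups. Kmt2c lay 1.19 ± 0.08 below Kmt2d (0.70 with the offset). Smarcd3 lay 1.03 ± 0.15 below Smarcd1, and Smarca1 2.56 ± 0.40 below Smarca5 (1.10 and 2.55 with the offset).

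The lower gene of a pair had the lower transcript GC content in 26 of the 33 pairs and the lower GC3 in 23. Some genes stand in several pairs, such as Chd9 against Chd8, Chd7 and Chd6, so the pairs are not independent. Of the 9 wide pairs, 8 had the lower GC content in the lower gene, and 8 of the 9 differences were smaller with the offset. Kdm5a and Kdm5c, 1.12 ± 0.07 apart, were 0.15 apart with it. The exception on both counts was Smarcd3 and Smarcd1, where the lower gene was the richer in GC (59.08% and 57.21%) and the difference was 1.10 with the offset. Smarcd3 itself, at 13.84 and 16.13 against 13.96 and 13.41 CPM, did not pass (-0.13, adjusted p = 0.38) but was lower with the offset (-0.40, adjusted p = 0.0057). Of the Smarcd3 transcript, 37.0% overlaps Chpf2 on the other strand, which these libraries cannot separate.

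**Figure D4:**
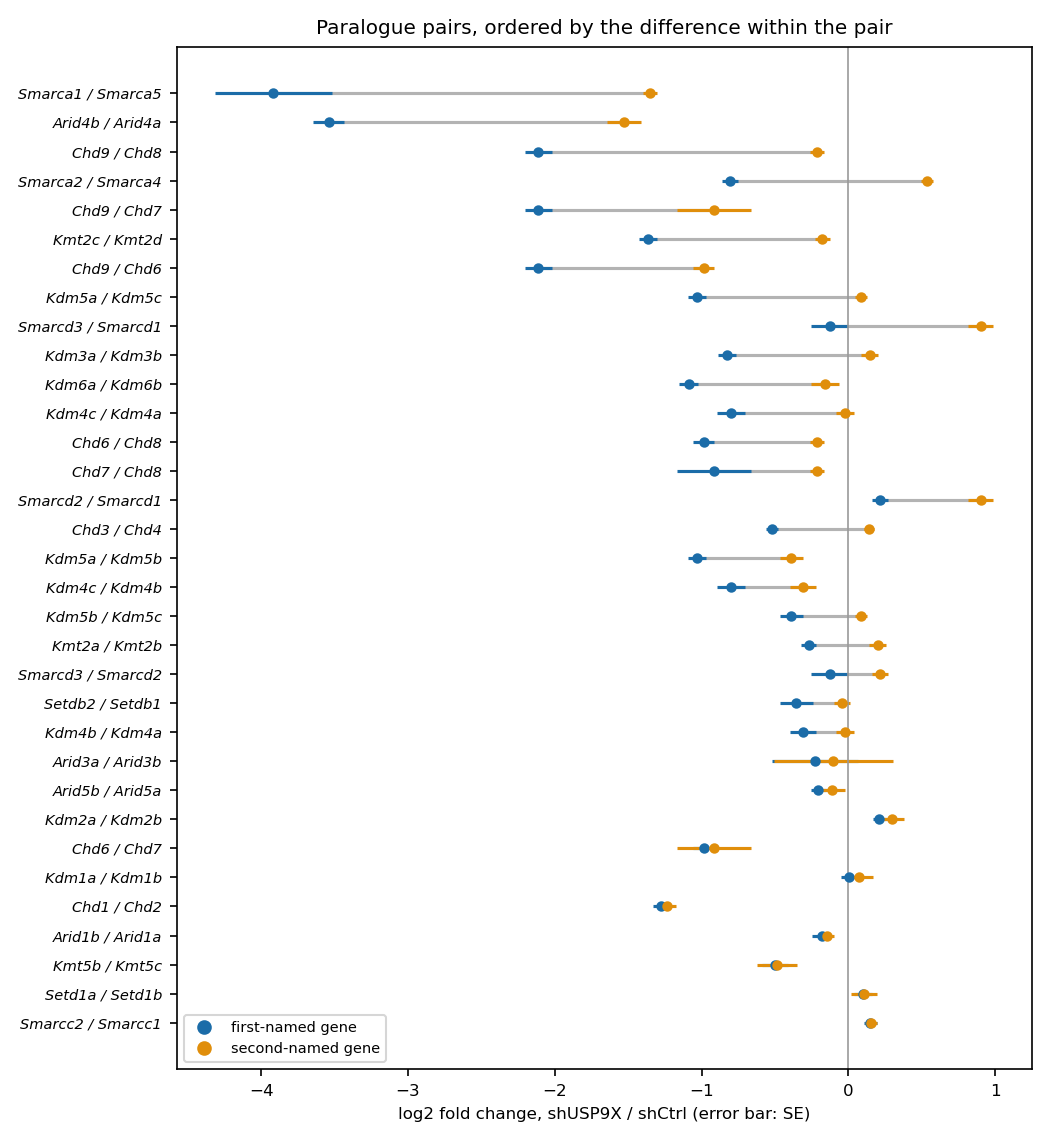
Log2 fold changes (x axis, shUSP9X over shCtrl, bars SE) of both genes in 33 paralogue pairs, ordered by their difference; blue is the first-named gene and orange the second. The upper 9 pairs differ by 1 or more, and only in Smarca2 and Smarca4 among them did one gene fall and the other rise.

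The coding sequences of such pairs show how the same protein stretch is spelled with unlike base composition. For each pair below, the first run of 20 identical residues that lies in a single exon of both genes is printed from the annotated transcripts of GENCODE M21, 5′ to 3′, and capitals mark G or C as the last base of a codon. Kmt2c and Kmt2d were taken as a pair with the lower gene poorer in GC, at 9 and 12 of 20 codon ends.
Kmt2c: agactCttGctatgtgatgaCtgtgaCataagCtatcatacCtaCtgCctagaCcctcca
Kmt2d: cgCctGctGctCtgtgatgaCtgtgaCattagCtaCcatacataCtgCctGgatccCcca
These stretches lie at chr5:25354677-25354736, minus strand, exon 19 of 59, and at chr15:98858080-98858139, minus strand, exon 16 of 55. Smarca2 and Smarca4 hold G or C at 14 and 17 of 20 codon ends.
Smarca2: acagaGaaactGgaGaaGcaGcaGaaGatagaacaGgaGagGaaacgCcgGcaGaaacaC
Smarca4: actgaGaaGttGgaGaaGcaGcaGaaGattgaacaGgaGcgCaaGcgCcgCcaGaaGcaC
They lie at chr19:26649095-26649154, plus strand, exon 7 of 33, and at chr9:21639329-21639388, plus strand, exon 8 of 34. Arid4b and Arid4a hold 10 and 12.
Arid4b: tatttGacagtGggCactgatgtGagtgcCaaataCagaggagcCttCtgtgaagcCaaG
Arid4a: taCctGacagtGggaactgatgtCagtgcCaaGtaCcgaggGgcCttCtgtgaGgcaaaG
They lie at chr13:14120159-14120218, plus strand, exon 3 of 24, and at chr12:71019392-71019451, plus strand, exon 3 of 24. Smarcd3 and Smarcd1, where the lower gene is richer in GC over the whole transcript, hold 13 and 10.
Smarcd3: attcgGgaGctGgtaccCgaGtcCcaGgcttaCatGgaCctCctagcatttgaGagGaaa
Smarcd1: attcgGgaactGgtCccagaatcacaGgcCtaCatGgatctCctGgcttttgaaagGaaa
They lie at chr5:24596015-24596074, minus strand, exon 4 of 13, and at chr15:99703738-99703797, plus strand, exon 4 of 13. Among the wide pairs not printed, the lower gene also held more G or C codon ends in its stretch for Smarca1 and Smarca5 (9 and 7) and for Kdm5a and Kdm5c (10 and 9). Whole proteins were 43.1% identical over the aligned residues for Kmt2c and Kmt2d, 78.6% for Smarca2 and Smarca4, 48.6% for Arid4b and Arid4a and 74.7% for Smarcd3 and Smarcd1.

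The genes that work with these enzymes were read from lists of complex partners. In the list of COMPASS and MLL partners, which holds the core shared by the Kmt2 and Setd1 complexes, subunits of some of these complexes and a few further genes, 5 of 17 genes fell and 10 rose, with a median of 0.19, and with the offset 5 were lower and 7 higher. The core subunits Wdr5 (0.39), Ash2l (0.26), Rbbp5 (0.15) and Dpy30 (0.61) all rose, with values of 0.24, 0.23, 0.09 and 0.90 with the offset. The call of Rbbp5 was lost with the offset (adjusted p = 0.19) and in several other settings, with adjusted p-values up to 0.33. The lowest gene was Bod1l, which protects replication forks with Setd1a, at 126.8 and 119.3 against 9.815 and 11.81 CPM (-3.52 ± 0.08, adjusted p = 6.9e-23, and -2.75 with the offset). The highest value was that of Pagr1a, with 62.02, 10.8, 11.81 and 132.82 counts in shCtrl 1, shCtrl 2, shUSP9X 1 and shUSP9X 2. It was not called at 0.92 (adjusted p = 0.18) but was without a filter (adjusted p = 0.0011), the groups overlap, and its value ran from -1.81 without shUSP9X replicate 2 to 2.57 without shCtrl replicate 1.

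The BAF and PBAF partners had 4 of 15 genes lower and 6 higher (median 0.15), and 4 and 5 with the offset (median 0.0041). Pbrm1, the polybromo subunit of PBAF, was the lowest, at 126.2 and 122.2 against 35.67 and 36.26 CPM (-1.79 ± 0.06, adjusted p = 1.8e-19, and -1.15 with the offset). The further PBAF genes Phf10 (-0.76) and Brd7 (-0.22) fell too, and Brd7 did not pass with the offset, in DESeq2 or without shUSP9X replicate 2. The list's highest gene was Actb (0.80 ± 0.03), the actin that BAF shares with the cytoskeleton. In the NuRD list, the partners of Chd3 and Chd4, 1 of 13 genes fell and 6 rose (median 0.14, and 3 lower and 8 higher with the offset), from Hdac2 at -0.33 (-0.17 with the offset) to Cdk2ap1 at 0.70 (0.38 with the offset). The ISWI partners of Smarca1 and Smarca5 had 6 of 9 genes lower and 1 higher (median -0.32), and 4 and 1 with the offset (median -0.13). Rsf1 was lowest, at 56.57 and 53.50 against 11.84 and 11.57 CPM (-2.23 ± 0.09, adjusted p = 2.3e-17, and -1.10 with the offset), and Baz2a, of the nucleolar complex NoRC, was highest at 0.79.

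Among 34 tested Polycomb genes, which methylate H3K27 and ubiquitinate H2A, 12 fell and 12 rose (35.3% each, median -0.0047), and with the offset 5 were lower and 15 higher. Suz12, a core subunit of PRC2, was lowest, at 195.4 and 195.7 against 63.90 and 63.69 CPM (-1.62 ± 0.05, adjusted p = 3e-20, and -1.01 with the offset), and Epop was highest (0.82). The catalytic Ezh2 was at -0.26 and did not pass with the offset. Of 21 other SET-domain and DOT1 enzymes 5 fell and 5 rose, from Ash1l, an H3K36 enzyme, at -1.35 (-0.56 with the offset) to Smyd5 at 0.99, and with the offset 2 were lower and 8 higher. Of 18 other Jumonji and demethylase-complex genes 5 fell and 7 rose, from Jmjd1c at -2.55 (-1.80 with the offset) to Gse1 at 0.75, and with the offset 7 were lower and 5 higher. Of 35 INO80, SRCAP and other SNF2-type genes 14 fell and 13 rose, and with the offset 8 were lower and 16 higher. The lowest was Atrx, the X-linked remodeller that deposits H3.3 at heterochromatin, at 178.5 and 167.3 against 11.18 and 11.16 CPM (-3.95 ± 0.07, adjusted p = 4e-25, and -2.68 with the offset), and the highest Ino80e (0.99). The counts of these lists are read beside the 33.6% lower and 33.8% higher of all genes, and those with the offset beside 29.2% and 32.7%.

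**Figure D5:**
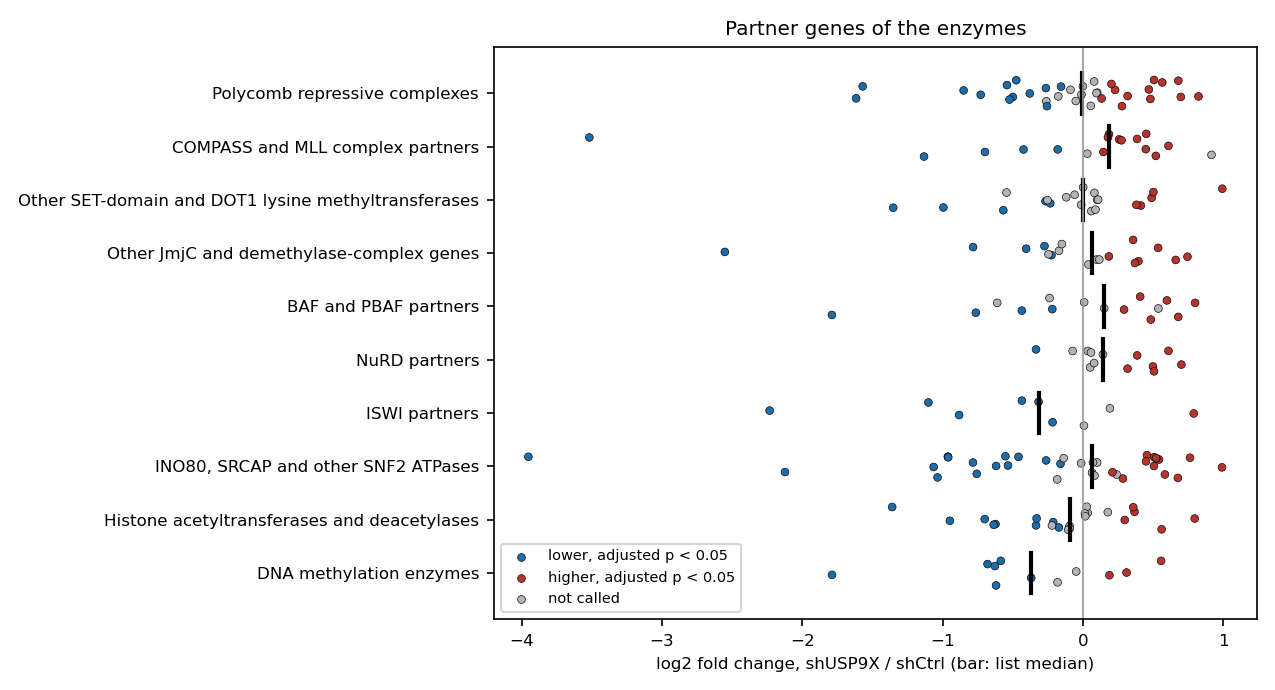
Log2 fold change (x axis, shUSP9X over shCtrl) of each tested gene in 10 lists of partner and neighbouring genes; blue points fell and red points rose at an adjusted p below 0.05, grey points did not pass, and black bars are list medians. The ISWI list has its median at -0.32 and the COMPASS list at 0.19, with single genes such as Atrx (-3.95, and -2.68 with the offset) and Bod1l (-3.52, and -2.75 with the offset) far to the left.

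The labelled cell type was checked against markers. Of 11 genes of mesothelium and ovarian surface epithelium, 10 had more than 3 counts in every library, with summed levels of 2740 and 2779 CPM in shCtrl and 3149 and 3088 in shUSP9X, and Krt19 was the most abundant. Single genes of that list went in opposite directions, with Krt8 going from 5441 and 5119 to 11905 and 10141 counts, and Wt1 at 6210 and 5892 against 5070 and 4253. Of 7 fibroblast genes 3 were above 3 counts throughout, led by Dcn, with sums of 251.8 and 259.0 against 147.9 and 145.3 CPM, while Pdgfrb and Thy1 were at 0. Of 6 endothelial genes 2 were, led by Tek, with sums of 10.67 and 11.70 against 6.88 and 7.18 CPM, and Cdh5, Kdr and Emcn were at 0. None of the 12 immune genes was above 3 counts in every library, but their sum was 0.173 and 0.253 CPM in shCtrl and 10.57 and 11.93 in shUSP9X. Itgam, the most abundant, had 0 counts in both control libraries and 72 and 75 in the shUSP9X libraries, and Adgre1 had 0 and 0 against 58 and 59, while Cd3e, C1qa, C1qb and Nkg7 were at 0 in every library. These sums move with the groups, and their part in the values above was not tested.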

How the data were processed

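RNA of ID8 cells was sequenced as 2 shCtrl and 2 shUSP9X libraries from a kit that does not mark strand. The authors deposited 1 table with an estimated count and an FPKM value (fragments scaled by transcript length and library size) per gene and library. Of the counts, 6.395% to 6.69% were not whole. The submitters' processing notes name fastp 0.18.0, Bowtie2 2.2.8, HISAT2, StringTie 1.3.1 and RSEM, with no role for each, and the build is GRCm38. The members and the gene lists were chosen with earlier results of these data known.

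Estimated counts were rounded and tested with edgeR 4.0.16 (filterByExpr, TMM, quasi-likelihood test, R 4.3.3), adjusted over 11448 genes. The design had foreseen plain counts. Totals of 15611363 to 19978889 counts per library and 2 libraries per group limit precision. GC content and length come from 1 representative GENCODE M21 transcript per gene, for 21973 of 22063 genes, and a second fit used a loess offset on both (span 0.3). The script was tested on simulated data. Alternatives were DESeq2 1.42.0 and its size factors, other scalings and filters, limma 3.58.1 on log2(FPKM + 1) or log2(FPKM + 0.1), a replicate block and leaving out each library. A fit that leaves out a library has 1 library in that group, so only the other group gives the spread. The genes given with values were Usp9x, the 2 lowest and 2 highest of each family, pairs differing by 1 or more, calls changed by the offset, and the lowest and highest gene of each list. Other members and list genes were named after their values were seen.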

Additional observations from a re-analysis of the deposited data

How the results depend on the processing

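Over 16 alternative settings the number of members lower at an adjusted p below 0.05 ranged from 24 to 34 and the number higher from 9 to 18, where 34 and 15 were reported. The 9 came from log2(FPKM + 1) with no filter, and the cause was not tested. At the cutoff of the study's methods 12 in place of 21 were lower under the GC content and length offset, with or without the replicate block. The median of the members was -0.17 under upper-quartile scaling, -0.23 by library size only, -0.19 by DESeq2, -0.18 without a filter, under the offset (with and without the block) and by log2(FPKM + 1), -0.15 by log2(FPKM + 1) unfiltered, and -0.22 in all 4 fits that left out a library (-0.2244 to -0.2186).

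The Kmt median was -0.35 under upper-quartile scaling, -0.41 by library size, -0.25 under the offset with or without the block, -0.27 by log2(FPKM + 1) with either filter, -0.30 by log2(FPKM + 0.1), and -0.39 to -0.35 without a library. The Setd median was -0.087 under upper-quartile scaling, -0.29, -0.30 and -0.18 by log2(FPKM + 1), log2(FPKM + 0.1) and log2(FPKM + 1) unfiltered, and -0.15 to -0.032 without a library. The Kdm median was -0.058 under upper-quartile scaling, -0.12 by library size and by log2(FPKM + 0.1), -0.035 by log2(FPKM + 1) unfiltered, -0.12 to -0.049 without a library, and of the other sign, 0.0021, by DESeq2 and 0.0036 without a filter, fits in which 18 in place of 16 Kdm genes have a value. The Chd median was -1.02 to -0.89 without a library, -0.53 under the offset with or without the block, and -0.65, -0.71 and -0.32 by log2(FPKM + 1), log2(FPKM + 0.1) and log2(FPKM + 1) unfiltered. The Arid median was -0.17 under upper-quartile scaling, -0.23 by library size, -0.22 under the offset with or without the block, -0.24, -0.26 and -0.18 by the FPKM fits, and -0.24 to -0.21 without a library. The Smarc median was 0.19 under upper-quartile scaling, 0.12 by library size, 0.0088 under the offset, 0.0096 with block and offset, 0.13 by log2(FPKM + 1) unfiltered, and 0.11 to 0.20 without a library.

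Among members called with or without the offset, the sign changed under it, with or without the block, for Kmt2a (0.24), Kmt2d (0.022), Kdm1a (-0.14), Kdm5b (0.14), Chd8 (0.17), Arid5b (0.12), Arid1b (0.17) and Smarcd2 (-0.0222, and -0.0225 with the block). Setd6, called in neither fit, went from 0.08 to -0.21 under the offset (adjusted p = 0.16). The cause was not tested. Pagr1a ran from -1.81 without shUSP9X replicate 2 to 2.57 without shCtrl replicate 1. The replicate numbers did not pair the libraries (correlation of their deviations -0.0285 over 8776 genes), and the replicate block alone changed no member's call. Block and offset together called Kdm6b as well (-0.21, adjusted p = 0.045). Low counts go with the largest SEs among the members, 0.50 for Setd4, 0.41 for Arid3b, 0.40 for Smarca1 and 0.29 for Arid3a.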

Other observations

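The enzymes of DNA methylation, which the comparison of histone enzymes leaves out, went in both directions. Of 11 tested genes 6 fell and 3 rose (the same numbers with the offset for GC content and length), with a median of -0.37, where 33.6% of all genes were lower and 33.8% higher (29.2% and 32.7% with the offset). Tet2, a dioxygenase that oxidises methylcytosine, was lowest, at 14.07 and 13.66 CPM in shCtrl against 4.098 and 3.917 with the knockdown (log2 fold change -1.79 ± 0.16, adjusted p = 2.4e-10), and Tet3 was at -0.68. The de novo enzyme Dnmt3a was at -0.58, from 65.45 and 66.22 to 43.26 and 44.57 CPM, and at -0.23 with the offset. Its FPKM, at 9.357 and 8.334 against 8.847 and 8.879, overlapped between the groups, and it was not called in limma on FPKM (adjusted p up to 0.97). The maintenance enzyme Dnmt1 rose from 391.3 and 383.4 to 478.4 and 483.3 CPM (0.31 ± 0.04, adjusted p = 1.6e-08), and its partner Uhrf1 was highest, from 276.0 and 288.1 to 423.6 and 406.4 CPM (0.56 ± 0.04, adjusted p = 1.1e-12). All 5 genes named here were called in the same direction with that offset, with Tet2 at -1.07.

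Of 23 tested histone acetyltransferases and deacetylases 9 fell and 5 rose, with a median of -0.09, and with the offset 8 were lower and 7 higher. The lowest was Hdac11, with 39 and 35 counts in shCtrl against 24 and 8 with the knockdown (-1.36 ± 0.41, adjusted p = 0.0051), but its value was -2.21 without shUSP9X replicate 1, and its adjusted p was 0.14 without shUSP9X replicate 2 and 0.068 in DESeq2. The highest was Kat2a, the GCN5 acetyltransferase of SAGA, at 88.86 and 90.44 against 157.4 and 154.1 CPM (0.80 ± 0.05, adjusted p = 8.1e-14), while its paralogue Kat2b was at -0.62.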
